A study of Mus musculus with 31 samples.

Results

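The 4 Hox clusters of the mouse were followed through the chromatin of primordial germ cells, from which eggs and sperm descend, as peaks of H3K27me3 and H3K9me3. The clusters hold the 38 Hox genes considered here, 10 in HoxA, 10 in HoxB, 9 in HoxC and 9 in HoxD. Each cluster was taken as a fixed window of the mm9 genome. HoxA is on chromosome 6 from 52100001 to 52230000, HoxB on chromosome 11 from 96050001 to 96235000, HoxC on chromosome 15 from 102745001 to 102875000 and HoxD on chromosome 2 from 74490001 to 74610000, 565 kb in all. Every peak that touched a window was taken, which gave 843 of 62662 H3K27me3 peaks and 3 of 202612 H3K9me3 peaks.

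The cells were sorted from wild-type embryos of a C57BL/6 x GOF18delta_PE-EGFP background, which carries a germ-cell EGFP reporter. Both marks were mapped by native ChIP-seq on 1000 cells per reaction, with 3 libraries per mark at E10.5 (E for embryonic day), in E13.5 females and in E13.5 males. Several embryos were pooled for the E10.5 cells, whose sex is not labelled. Nothing in the labels ties replicates to separate animals, so the p-values reflect the spread between libraries alone, which may be technical. Histone peaks give no expression level, so the germ-cell label was not checked against marker genes.

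Hox genes encode homeodomain transcription factors that give body segments their identity along the head-to-tail axis. Their order on the chromosome follows the order in which they act: low-numbered genes such as Hoxb1, which specifies a hindbrain segment, act early and near the head, and high-numbered genes such as Hoxa13 and Hoxd13, which shape digits and genitalia, act late and near the tail. In cells that do not use them the clusters are textbook targets of Polycomb repressive complexes, which lay down H3K27me3 (trimethylation of lysine 27 of histone H3) across them, while H3K9me3 marks heterochromatin and repeats. From low to high coordinates HoxA runs from Hoxa2 to Hoxa13, whereas HoxB runs from Hoxb13 to Hoxb1, HoxC from Hoxc13 to Hoxc4 and HoxD from Hoxd13 to Hoxd1. The gene order is that of the RefSeq table of GRCm38.p6. The annotation at hand is of that build and the peaks are on mm9, so values are given by cluster and position and not by gene.

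Polycomb complexes of vertebrates are known to settle on stretches rich in unmethylated CpG, so the promoters of the clusters are shown for that property. RefSeq promoters of GRCm38.p6 matched 22 of the 38 genes, with 9 of 10 genes of HoxA, 3 of 10 of HoxB, 1 of 9 of HoxC and 9 of 9 of HoxD. In the 250 bases before the start, the 24 promoters of these genes held a median of 12.5 CpG (the letters CG, which read the same on both strands), with a range from 2 to 35. Over all 32851 promoters of the table the median was 6. Of the Hox promoters 62.5% held at least 10 CpG, against 37.8% of all promoters. The median ratio of observed to expected CpG was 0.721 for the Hox promoters and 0.374 for all. Below are the 250 bases before the start of the gene with the most CpG in each cluster, 5′ to 3′ on the gene's strand, with every CG in capitals. They are Hoxa13 (chromosome 6, 52260881 to 52261130, minus strand, 35 CpG), Hoxb4 (chromosome 11, 96318017 to 96318266, plus strand, 14 CpG), Hoxc4 (chromosome 15, 103034145 to 103034394, plus strand, 8 CpG) and Hoxd13 (chromosome 2, 74667975 to 74668224, plus strand, 31 CpG), all in GRCm38.p6 coordinates.
Hoxa13: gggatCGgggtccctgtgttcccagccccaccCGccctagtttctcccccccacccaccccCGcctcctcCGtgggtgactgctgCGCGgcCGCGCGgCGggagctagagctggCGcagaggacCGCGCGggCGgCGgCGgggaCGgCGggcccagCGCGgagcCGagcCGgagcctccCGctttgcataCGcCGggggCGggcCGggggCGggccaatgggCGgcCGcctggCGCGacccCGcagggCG
Hoxb4: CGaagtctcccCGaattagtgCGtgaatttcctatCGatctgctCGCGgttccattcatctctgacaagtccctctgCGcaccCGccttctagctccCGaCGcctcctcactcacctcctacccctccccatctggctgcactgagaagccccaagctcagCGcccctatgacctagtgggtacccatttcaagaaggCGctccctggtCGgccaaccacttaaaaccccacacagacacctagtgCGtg
Hoxc4: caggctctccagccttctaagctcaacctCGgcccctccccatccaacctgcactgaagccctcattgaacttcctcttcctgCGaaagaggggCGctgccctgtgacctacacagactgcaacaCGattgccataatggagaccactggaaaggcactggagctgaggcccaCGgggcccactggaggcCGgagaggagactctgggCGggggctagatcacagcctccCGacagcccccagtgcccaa
Hoxd13: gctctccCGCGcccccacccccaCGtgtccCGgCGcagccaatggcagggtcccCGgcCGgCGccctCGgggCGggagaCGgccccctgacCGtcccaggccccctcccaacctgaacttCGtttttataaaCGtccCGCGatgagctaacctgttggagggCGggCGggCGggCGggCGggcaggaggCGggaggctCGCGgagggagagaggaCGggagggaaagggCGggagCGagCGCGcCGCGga
These runs show how unevenly CpG is spread: the promoters of Hoxa13 and Hoxd13 are dense in it, and the only promoter available for HoxC is not. The runs were chosen for having the most CpG. Genes elsewhere in the clusters varied as well, with 28 CpG for Hoxa5, 24 for Hoxa6 and 24 for Hoxd1, but 3 for Hoxa9 and 3 for Hoxd4.

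The lists differ greatly in length, and sequencing depth is unknown because they hold no read counts. H3K27me3 lists ran from 359 peaks over 0.159 Mb (E13.5 male replicate 2) to 23141 peaks over 35.53 Mb (E10.5 replicate 3). The list of E10.5 replicate 2 was also short, with 1703 peaks over 2.084 Mb against 11330 peaks over 19.87 Mb in replicate 1. These short lists stand apart from the other lists of their groups, so results are also given without them. The labels list a single E10.5 input of replicate 3, with no mark in its name, where E10.5 replicates 1 and 2 have an input per mark. At E13.5 it is the reverse in both sexes, with a single input in replicates 1 and 2 and an input per mark in replicate 3. The peak names of both marks' E10.5 replicate 3 lists give the same input. The labelled inputs thus differ between the stages within each replicate number, and their part in the results was not tested. In such bulk samples, fewer cells with the mark and less mark per cell cannot be told apart.

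H3K27me3 covered most of every Hox cluster in the long E10.5 lists, and a smaller part, broken into short peaks, at E13.5 in both sexes. In HoxA it covered 100.4, 23.04 and 115.9 kb in E10.5 replicates 1 to 3, 23.01, 45.32 and 33.36 kb in the female lists, and 28.21, 2.525 and 41.94 kb in the male lists. In HoxB the same lists held 118.4, 11.19 and 149.5 kb at E10.5, 27.25, 37.52 and 39.71 kb in females, and 29.33, 0.742 and 35.71 kb in males. In every cluster E10.5 replicates 1 and 3 lay far above all E13.5 lists, while E10.5 replicate 2 lay among or below them, so the groups overlapped. HoxC held 120.2, 27.54 and 126.9 kb at E10.5, 19.08, 48.33 and 31.28 kb in females, and 34.78, 2.959 and 43.53 kb in males. HoxD held 92.33, 18.2 and 99.42 kb at E10.5, 15.88, 33.36 and 27.88 kb in females, and 25.44, 0.622 and 33.74 kb in males. HoxC was the most fully covered cluster in both long E10.5 lists, at 92.48 and 97.65% of its window, and HoxB the least, at 64.02 and 80.82%.

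**Figure D1:**
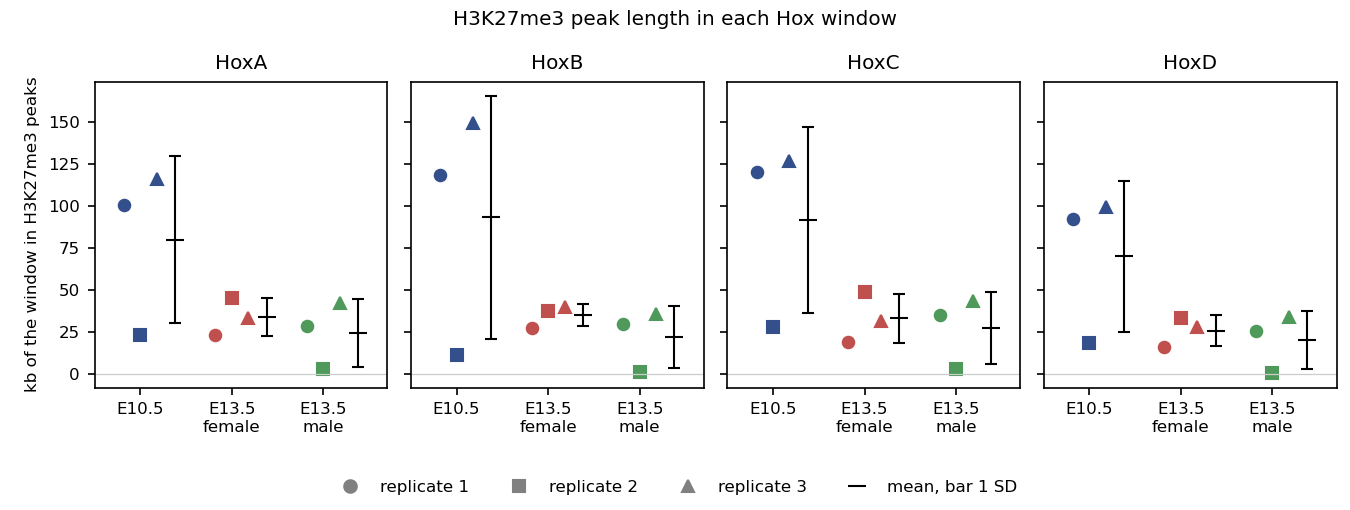
Each point is the kb of a Hox window covered by H3K27me3 peaks in 1 library (y axis), by group (x axis), with the mean and a bar of 1 SD in black (n = 3 libraries). Replicates 1 and 3 of E10.5 lie between 92.33 and 149.5 kb and no E13.5 library exceeds 48.33 kb, while E10.5 replicate 2 lies between 11.19 and 27.54 kb.

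In HoxA the mean covered length was 79.78 ± 49.75 kb over the 3 lists of E10.5 and 29.06 ± 15.43 kb over the 6 of E13.5 (± SD). The other clusters went the same way. HoxB had 93.03 ± 72.56 kb against 28.38 ± 14.36 kb, HoxC 91.55 ± 55.53 kb against 29.99 ± 16.7 kb, and HoxD 69.98 ± 44.99 kb against 22.82 ± 12.68 kb. E13.5 minus E10.5 was -50.72 kb in HoxA (exact two-sided permutation test of 3 against 6 libraries, p = 0.0595), -64.65 kb in HoxB (exact p = 0.0714), -61.55 kb in HoxC (exact p = 0.0595) and -47.16 kb in HoxD (exact p = 0.0595). None of the 4 clusters had groups that did not overlap, against 8.76% of the 3220 windows and genome tiles of 130 kb that lay lower at E13.5 in this way and 0.217% that lay higher. Without E10.5 replicate 2, every E13.5 list lay below both E10.5 lists in all 4 clusters, at exact p = 0.0357, the smallest that 2 against 6 libraries allow. The differences were then -79.1, -106, -93.6 and -73.1 kb in HoxA, HoxB, HoxC and HoxD. In that setting 71.4% of all features lay lower at E13.5 without overlap, so the 4 clusters did what most of the marked genome did. With all lists, 19.2% of features were lower at an exact p under 0.05, and no Hox cluster was among them.

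Covered kb follow the length of the whole list, so the share of each list's own peak length was compared next, and it pointed the other way. The 4 clusters together took 2.171, 3.837 and 1.384% of the H3K27me3 peak length in E10.5 replicates 1 to 3. They took 5.468, 3.152 and 3.203% in the female lists and 4.76, 4.306 and 3.884% in the male lists. The lists with the most peaks had the lowest shares, and E10.5 replicate 2, short like the E13.5 lists, had a share within their range. The mean share was 2.464 ± 1.252% at E10.5, 3.941 ± 1.323% in females and 4.317 ± 0.4381% in males (SD, n = 3 each).

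**Figure D2:**
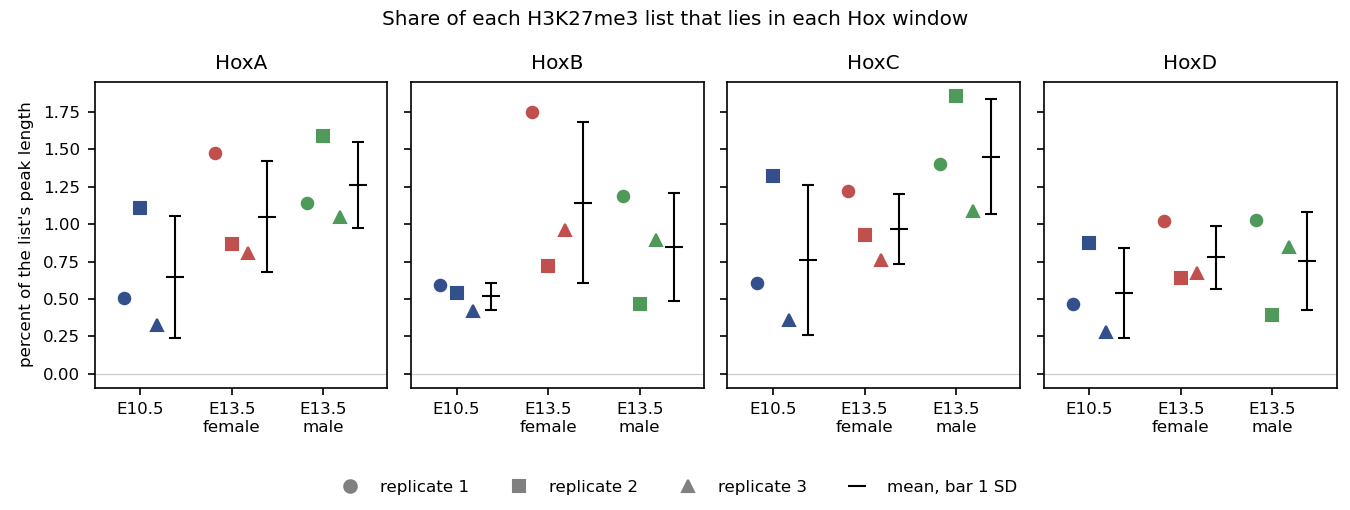
Each point is the percent of a library's whole H3K27me3 peak length that lies in 1 Hox window (y axis), by group (x axis), with the mean and a bar of 1 SD in black (n = 3 libraries). The means of the E13.5 groups are above that of E10.5 in each cluster, from 0.518% at E10.5 in HoxB to 1.143% in females and from 0.7615% at E10.5 in HoxC to 1.453% in males, and the points of most groups overlap.

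By cluster, the share was tested with limma on log2(ppm + 100), where ppm is the window's share of the list's peak length in ppm, in a fit over all 3220 tiles and windows with adjustment over all of them. E13.5 minus E10.5 gave log2 differences of 0.97 ± 0.47 (SE) in HoxA (adjusted p = 0.519, limma), 0.83 ± 0.46 in HoxB (adjusted p = 0.594), 0.81 ± 0.48 in HoxC (adjusted p = 0.624) and 0.58 ± 0.49 in HoxD (adjusted p = 0.760). None of the clusters passed the threshold, against 0.0621% of features called higher and 0.559% called lower. The median over all features was -0.20, with 38.4% of features above 0, and the Hox clusters stood above 93.9, 91.6, 91.1 and 86.7% of them. Without dividing by list length the same contrast turned to -1.48, -1.52, -1.65 and -1.72 in HoxA, HoxB, HoxC and HoxD (adjusted p from 0.174 to 0.300, limma), while the median of all features moved to -1.13. All 4 clusters then lay below that median. HoxD also turned to -0.50 with scores of at least 20 and to -0.34 with the 359 top peaks of every list.

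Each sex gave the same picture against the shared E10.5 libraries. For females the log2 differences in share were 0.82 in HoxA, 1.04 in HoxB, 0.52 in HoxC and 0.64 in HoxD, with adjusted p from 0.640 to 0.867 (limma), where 0% of features were called in either direction. For males they were 1.11, 0.62, 1.09 and 0.52, with adjusted p from 0.434 to 0.729, where 0.0311% were called higher and 0.155% lower. Of the 4 clusters, HoxB had female shares that did not overlap those of E10.5: 0.5961, 0.5371 and 0.4208% at E10.5 lay below 1.748, 0.7187 and 0.9618% in females (exact p = 0.1, the smallest that 3 against 3 allow). Of all features 6.8% were higher in females in this way.

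Between the sexes no cluster differed beyond the spread of the libraries. Male minus female log2 differences in share were 0.29 ± 0.55 in HoxA, -0.42 ± 0.53 in HoxB, 0.57 ± 0.55 in HoxC and -0.12 ± 0.57 in HoxD (SE; adjusted p from 0.798 to 0.951, limma), where 0% of features were called in either direction. In covered kb male minus female was -9.672, -12.9, -5.807 and -5.773 kb, with exact p of 0.6, 0.4, 0.7 and 0.7. Without male replicate 2 it was 1.18 kb in HoxA, -2.31 kb in HoxB, 6.26 kb in HoxC and 3.88 kb in HoxD. These tests do not show that the sexes are alike.

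Every H3K27me3 list, at either stage, covered the Hox clusters far more densely than the genome. The covered share of the 4 windows was 101.5, 179.4 and 64.72 times that of the genome in E10.5 replicates 1 to 3, 255.6, 147.4 and 149.7 times in females, and 222.6, 201.3 and 181.6 times in males. Ranked by covered share among 20326 windows and tiles, the 4 clusters held ranks 1 to 9 in the 7 lists other than the short ones. In E13.5 female replicate 1 they were ranks 1 to 4 (HoxA, HoxB, HoxC, HoxD in that order). HoxC ranked first in all 3 E10.5 lists. In the short lists the ranks were 3, 55, 1 and 4 for HoxA to HoxD in E10.5 replicate 2, and 8, 63, 6 and 39 in E13.5 male replicate 2. HoxB was thus the lowest of the clusters in 8 of 9 lists.

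The form of the peaks differed too. In E10.5 replicates 1 and 3 the windows held 67 and 53 peaks, fewer and wider than in most E13.5 lists. HoxC had the fewest of them, 10 and 5, against 20 and 13 in HoxA, 24 and 22 in HoxB and 13 and 13 in HoxD. The widest peak of the windows was 43733 bp in E10.5 replicate 1 and 42589 bp in replicate 3, both in HoxC, and each was also the widest peak of its whole list. In replicate 2, with 52 peaks, the widest was 5387 bp, in HoxB. At E13.5 the windows held 106, 163 and 152 peaks in females and 96, 12 and 142 in males, and no peak was wider than 5140 bp.

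**Figure D3:**
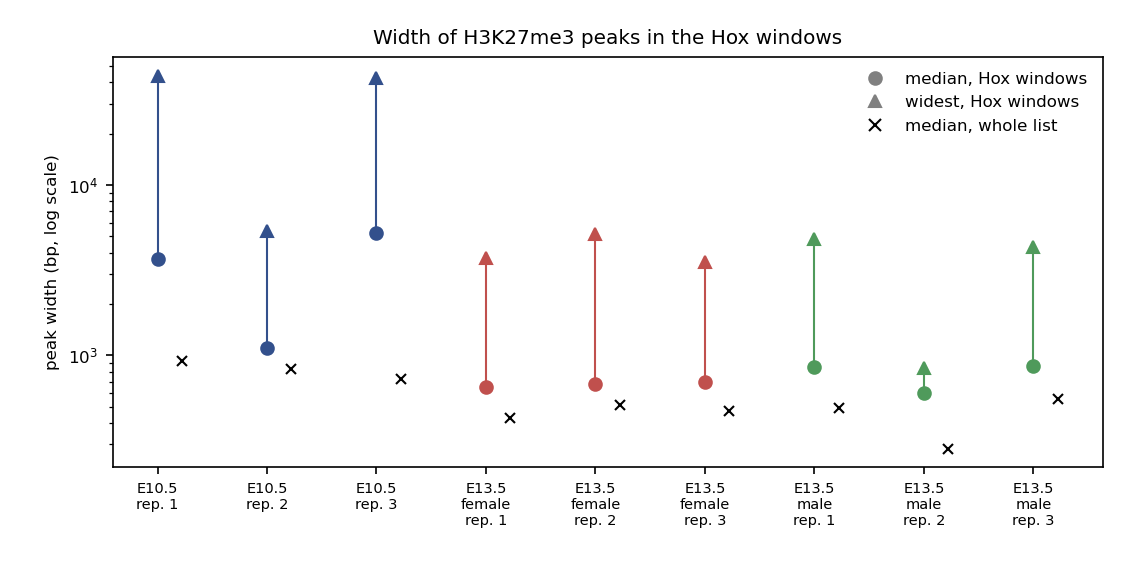
Width in bp (y axis, log scale) of H3K27me3 peaks in the Hox windows of each library (x axis): circles are the median, triangles the widest, and crosses the median of the library's whole list. E10.5 replicates 1 and 3 reach 43733 and 42589 bp, and the other 7 libraries stay at or below 5387 bp.

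The median Hox peak was 3672, 1108 and 5247 bp wide in the E10.5 lists, against 923.5, 827 and 728 bp over the whole lists. In females it was 655, 682 and 701.5 bp against 431, 510 and 469 bp, and in males 854, 604.5 and 862 bp against 493.5, 283 and 553 bp. Hox peaks were thus wider than the list's median in 9 of 9 lists. All 3 E10.5 medians of Hox peaks lay above the 6 of E13.5, and so did the medians of the whole lists, so this order is not particular to the clusters. Relative to its own list the median Hox peak was 3.98, 1.34 and 7.21 times as wide in E10.5 replicates 1 to 3, 1.52, 1.34 and 1.50 times in females, and 1.73, 2.14 and 1.56 times in males. On this measure the long E10.5 lists stood above the E13.5 lists and E10.5 replicate 2 did not. The widest peaks of the long E10.5 lists ran in HoxC from 102767568 to 102811300 (replicate 1) and from 102775678 to 102818266 (replicate 3). In HoxA they ran from 52162527 to 52191763 and from 52161033 to 52188466, and in HoxD from 74511877 to 74535299 and from 74491885 to 74523544. In HoxB the peaks with the most bases in the window differed in place, from 96107983 to 96131457 in replicate 1 and from 96180718 to 96216467 in replicate 3.

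Position within the clusters was followed in bins of 5 kb, 26 in HoxA, 37 in HoxB, 26 in HoxC and 24 in HoxD, where a library holds a bin if peaks cover at least 1 kb of it. All 3 E10.5 lists held 33 bins, 13 in HoxC, 8 in HoxA, 8 in HoxD and 4 in HoxB. The longest run was 50 kb of HoxC, from 102760001 to 102810000, followed by 30 kb of HoxD, from 74495001 to 74525000, and 25 kb of HoxA, from 52175001 to 52200000. All of these runs begin or lie on the side of the high-numbered genes. E10.5 replicates 1 and 3 held nearly every bin of these clusters, so the runs lie where replicate 2 held bins. In HoxB the runs were 10 kb each, from 96050001 to 96060000 at the Hoxb13 end and from 96110001 to 96120000.

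**Figure D4:**
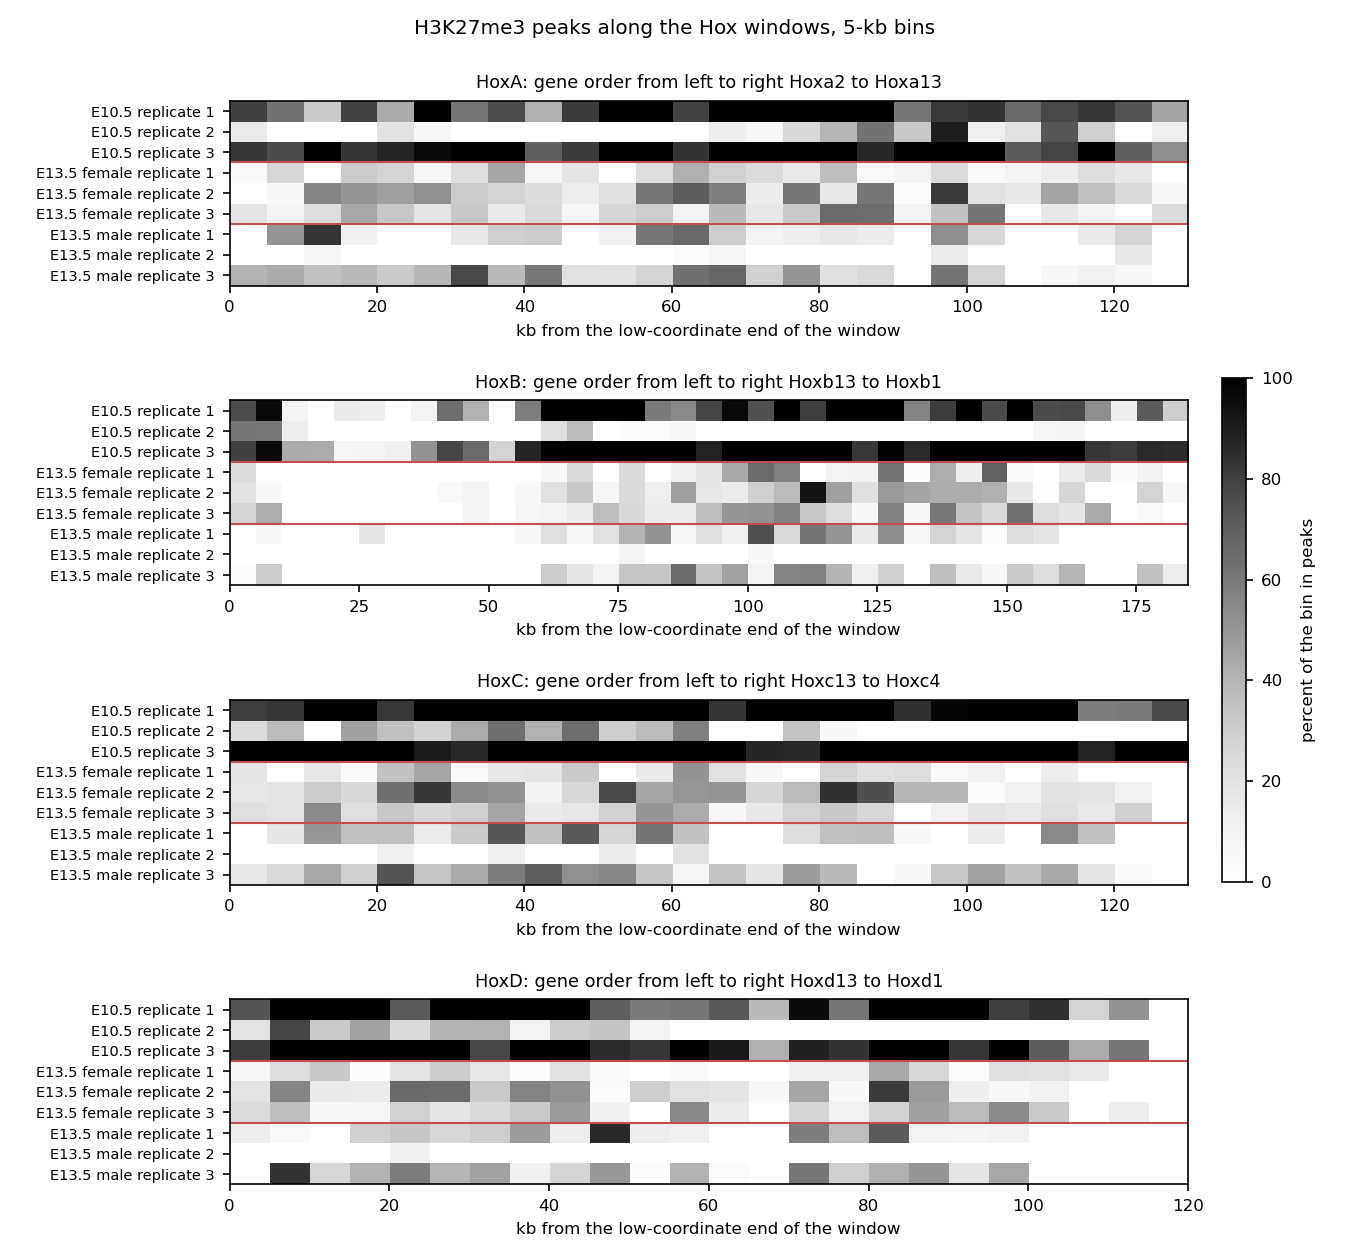
Rows are the 9 H3K27me3 libraries and columns 5-kb bins (x axis, kb from the low-coordinate end of each window), and the shade gives the percent of a bin in peaks, from 0 in white to 100 in black. E10.5 replicates 1 and 3 are dark over most of the windows but paler in part of HoxB on the Hoxb13 side. E10.5 replicate 2 is shaded toward the high-numbered genes, and the E13.5 rows are patchy, with 20 bins held by all 3 female libraries.

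All 3 female lists held 20 bins, 6 in HoxA, 6 in HoxB, 5 in HoxC and 3 in HoxD, and no run exceeded 10 kb. The 3 male lists shared no bin, because the 359-peak list held none with the others; without it, all 5 E13.5 lists held 10 bins. Those were 3 in HoxA, 4 in HoxB, 2 in HoxC and 1 in HoxD, among them 52155001 to 52160000 in HoxA and 96155001 to 96160000 in HoxB. Held bins at E13.5 therefore lay scattered along the clusters. Of the 50-kb run of HoxC shared by the 3 E10.5 lists, the 3 female lists held 102765001 to 102775000 and 102805001 to 102810000. The 5 E13.5 lists, a stricter rule than 3 lists, held 1 bin of it, from 102765001 to 102770000.

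Bins held by all lists of 1 stage and none of the other were few, and all were marked at E10.5. Against all 6 E13.5 lists there were 2 such bins of 109 with a holder, both in HoxA, from 52190001 to 52195000 and from 52205001 to 52210000, where 1.47% of all bins were called. In the first of these the 3 lists of E10.5 covered 3.22 ± 1.696 kb and the 6 of E13.5 covered 0.1865 ± 0.2381 kb (± SD), and in the second 2.632 ± 1.396 kb and 0.2132 ± 0.354 kb. These values describe bins chosen for that difference. Both lie toward Hoxa13, the last gene of the cluster, as do all HoxA bins that the 3 E10.5 lists held. The call could thus fall on no other side of HoxA. Against females there were 6 of 109 Hox bins with a holder, 2 each in HoxA, HoxC and HoxD, where 2.31% of the genome's bins with a holder were called. Against males there were 7 of 109, 4 in HoxA, 2 in HoxB and 1 in HoxC, where 2.67% of the genome's bins were called. None was held at E13.5 alone, where 0.0163% of all bins were held by all 6 lists, 0.0329% by the female lists and 0.0165% by the male lists. Without E10.5 replicate 2 the counts of bins held at E10.5 alone rose to 11, 22 and 29, against all E13.5, female and male lists. The shares called over the genome's bins with a holder rose to 30.7, 34.5 and 39.8%. Between the sexes 1 of 93 Hox bins with a holder was held by all females and no male, in HoxB from 96195001 to 96200000, where 1.27% of the genome's bins were. The count rose to 7 without male replicate 3, where 2.97% of the genome's bins were called. The opposite count was 0, as over the genome (0%), and 5 without male replicate 2, where 2.95% of the genome's bins were called.

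The E10.5 lists leaned toward the tail-end genes of the clusters where peaks were few or were limited to the strongest. Each window was cut at its middle into a side with the low-numbered genes and a side with the high-numbered genes, a division chosen after the values were seen and given with no test. In E10.5 replicate 2 only 6.208% of the Hox length lay in the low-numbered sides, with 9.02% in HoxA, 7.666% in HoxB, 7.364% in HoxC and 0% in HoxD. In the long lists of replicates 1 and 3, peaks covered 76.53 and 89.1% of the low-numbered sides and 76.17 and 84.99% of the high-numbered sides. Of the Hox length in these lists, 50.12 and 51.18% lay in the low-numbered sides. These totals join HoxB, at 59.85 and 58.54%, with HoxD, at 43.88 and 43.36%, while HoxA and HoxC lay between 46.61 and 50.02%. The low-numbered sides held 57.71, 50.56 and 51.75% of the Hox length in females and 49.76, 12.24 and 51.47% in males. E13.5 female replicate 1, with 85.23 kb in the windows against 79.96 kb in E10.5 replicate 2, held 54.34% of its HoxA length, 83.08% of HoxB, 32.86% of HoxC and 48.93% of HoxD in the low-numbered sides. Its total of 57.71% thus joins clusters that lean opposite ways, whereas E10.5 replicate 2 leaned to the high-numbered side in all 4. The 359-peak male list, with 6.848 kb in the windows, leaned like E10.5 replicate 2.

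To set the lists side by side at an equal number of peaks, the 1703 peaks with the highest deposited score were taken from each, as many as E10.5 replicate 2 holds. This equals the number of peaks and not their length. The low-numbered sides then held 26.91, 6.208 and 36.27% of the Hox length in the E10.5 lists. In females they held 55.43, 52.17 and 53.25%, and in males 49.96 and 46.68% in replicates 1 and 3, so that no E13.5 list of this size fell within the E10.5 range. By cluster the lists of this size did not overlap in HoxA, at 9.02 to 32.36% at E10.5 and 45.43 to 63.23% at E13.5. Nor did they in HoxB, at 7.666 to 41.23% against 65.12 to 79.92%. They overlapped in HoxC, at 7.364 to 43.25% against 28.8 to 43.98%, and in HoxD, at 0 to 26.1% against 4.285 to 55.31%. The male list of 359 peaks lay within or below the E10.5 range in every cluster, at 21.78, 38.81, 0 and 0% in HoxA to HoxD. The scale of the score is unknown, and its part in this order was not tested. On the high-numbered side of HoxB, the bins starting 10, 15 and 20 kb from the low-coordinate end were nearly bare with all peaks. They held 0% in every E13.5 list and 0 to 43.48% in the E10.5 lists. The part of such stretches in the order of HoxB was not tested. No other region was divided in this way, so how often lists separate like this elsewhere was not tested. At 1703 peaks the Hox length still differed. The low- and high-numbered sides held 67.91 and 184.5 kb in E10.5 replicate 1 and 121.8 and 214.1 kb in replicate 3. They held 4.964 and 75 kb in replicate 2, and 24.91 to 36.05 and 21.87 to 37.82 kb in the E13.5 lists of 1703 peaks.

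**Figure D5:**
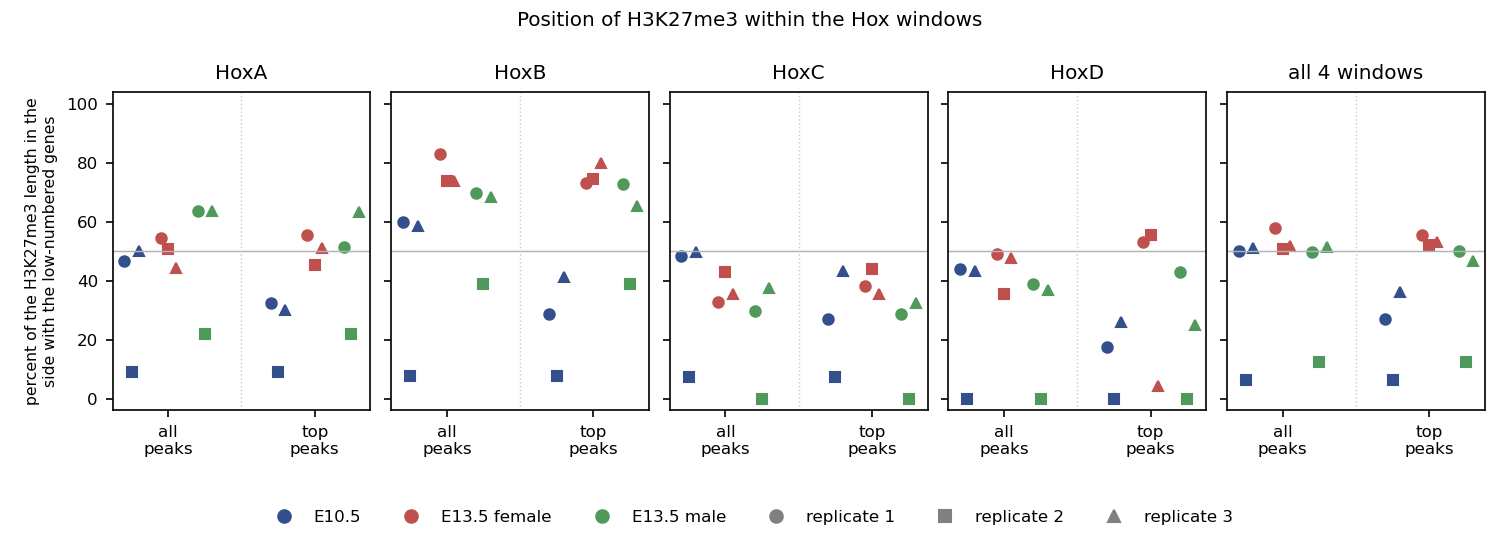
Percent of the H3K27me3 length of each Hox window that lies on the side with the low-numbered genes (y axis), for all peaks and for the 1703 top peaks by score (x axis), 1 point per library. With top peaks the E10.5 points of all 4 windows lie from 6.208 to 36.27% and the E13.5 points from 46.68 to 55.43%, except the 359-peak male list at 12.24%.

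Most marked bases of E13.5 were also marked in the long E10.5 lists, which cover most of the windows. Of the Hox length of each E13.5 list, 88.2 to 91.98% lay in peaks of E10.5 replicate 1, which cover 76.35% of the windows, and 97.9 to 100% in peaks of E10.5 replicate 3, which cover 87.05%. The length of E10.5 replicate 2 lay to 96.26 and 99.88% in these lists. The shares of the E13.5 lists are 1.16 to 1.20 and 1.12 to 1.15 times the coverage of the receiving list. Among themselves the E13.5 lists shared a smaller part of their length, 1.42 to 1.61 times coverage over the 20 ordered pairs without the 359-peak list. In the short E10.5 replicate 2 the same E13.5 lists lay at 1.37 to 1.55 times its coverage. The ratio is capped where the receiving list covers most of the windows. Those of the long E10.5 lists therefore cannot be set against the others. Female replicate 2, which covers 29.12% of the windows, held 45.85% of female replicate 1, 44.31% of female replicate 3, 46.63% of male replicate 1, 46.9% of male replicate 3 and 80.21% of the 359-peak list. E10.5 replicate 2, which covers 14.15% of the windows, held 19.45 to 22% of the E13.5 lists other than the 359-peak one. At each base, 3 of 3 E10.5 lists agreed over 21.13 kb of HoxA, 10.82 kb of HoxB, 27.39 kb of HoxC and 17.53 kb of HoxD.

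Coverage beyond the borders was lower than within the window in each list and flank, except for HoxB in E13.5 male replicate 2. In the 100 kb on either side, HoxA held 0.454 and 9.148% in E10.5 replicate 1 and 3.193 and 14.12% in replicate 3, against 77.22 and 89.18% within the window. HoxD had the sharpest border, beyond the Hoxd1 end, where the next 100 kb held 0% in 8 lists and 0.148% in female replicate 2. Beyond the low-coordinate end of HoxB, on the side of Hoxb13, coverage stayed at 36.08 and 43.75% in the long E10.5 lists and at 3.405 to 7.512% in the E13.5 lists other than the 359-peak one. In the short lists this flank was nearly as full as the window or fuller, at 5.47% against 6.05% in E10.5 replicate 2 and 1.227% against 0.4011% in E13.5 male replicate 2. The flank past Hoxc4 held 19.75 and 41.56% in the long E10.5 lists and 0.537 to 4.093% in the same E13.5 lists.

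Hox peaks were long and numerous without being the highest by score. The 100 top peaks of each list by the authors' score held no Hox peak in 6 lists and 1 in E10.5 replicate 3, female replicate 2 and female replicate 3. The median Hox peak stood at the 79.36th, 39.99th and 89.86th percentile of the score in E10.5 replicates 1 to 3, and between 52.89 and 68.23 in females. In males it stood at 55.74, 16.02 and 62.5. In the short lists, Hox peaks thus sat below the middle of the scores.

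H3K9me3 was nearly absent from the clusters. HoxA, HoxC and HoxD held 0 kb in all 9 lists, as did 31.1% of the 20322 tiles of 130 kb. HoxB held 1 peak in each of 3 lists, 296 bp in E10.5 replicate 2 (96072697 to 96072992), 255 bp in E13.5 male replicate 2 (96080560 to 96080814) and 251 bp in E13.5 male replicate 3 (96108915 to 96109165). In those lists the 4 windows were covered 0.02971, 0.0254 and 0.04565 times as much as the genome. The list of E13.5 male replicate 1 covers 2.986% of the genome and had no peak in any Hox window, while 38% of tiles had none. The HoxB peaks lie toward Hoxb13, and 2 of the 3 overlap no H3K27me3 peak of any list. HoxB alone passed the filter of peaks in at least 3 of 9 lists, and its log2 difference in share between E13.5 and E10.5 was 0.01 ± 0.09 (SE, adjusted p = 0.976, limma), where 0% of 10220 features were called in either direction and 1259 had an unadjusted p under 0.05. By sex the adjusted p (limma) were 0.976 for females against E10.5 (0.636% of features called higher, 0.0294% lower), 0.840 for males against E10.5 (0% in either direction) and 0.808 between the sexes (0.108% and 0.196%). The HoxB shares were at most 9.764 ppm, and 100 ppm was added to each before the log. The differences could therefore only be small, and these tests cannot decide whether H3K9me3 in HoxB changed.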

How the data were processed

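The 18 lists are of broad peaks, 1 for each ChIP library, and the peak names give an input for each. The deposited score in columns 5, 7, 8 and 9 is the authors' own value for each peak, of unknown scale, and was used only to rank or filter peaks. Per the submitters' processing notes, the tools were MACS2 2.1.0, BWA 0.7.5a, deepTools 3.3.0, CASAVA 1.8.4, SAMtools and Picard on mm9, in roles that the sources used here leave unstated. The labels list 31 samples, and the 13 inputs among them were not used.

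Overlapping peaks were merged with Python 3.11.15, after mitochondrial peaks (19 of 265293) were dropped. The genome was taken as 2641.51 Mb, the sum of the last peak ends. Tiles of 130 kb that do not touch a Hox window stood beside the windows, and those with peaks in at least 3 of the 9 lists of a mark were tested with limma 3.58.1 on log2(ppm + 100), 1 fit per mark, at a Benjamini-Hochberg adjusted p of 0.05; the script was tested on simulated data. A difference on this scale understates changes of low values. Covered kb went into exact permutation tests (two-sided), and 5-kb bins were counted. The text names the 4 clusters always, the longest runs of held bins, the called bins and the widest peaks, and shows 1 promoter per cluster, that with the most CpG. Members, lists and tests were chosen with earlier results of these data known. Alternatives were other pseudocounts, tile sizes, filters and scores, undivided covered kb, a replicate block, and leaving out each list; leaving out both short lists and the comparison of the 2 sides of each window were added after seeing the data.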

Additional observations from a re-analysis of the deposited data

Results flagged for a closer look

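Of 10 sets of 6 E13.5 H3K27me3 values looked at (covered kb and percent of peak length, for each cluster and for all 4 windows), 1 held a library far from the others. In HoxB, E13.5 male replicate 2 had 0.742 kb in peaks, while the other 5 E13.5 lists had 27.25 to 39.71 kb. Chance would mark about 1 in 20 such sets. The same list is the shortest of all H3K27me3 lists, with 359 peaks, and its share of peak length in HoxB, 0.4666%, was the lowest of the 6 but was not marked.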

How the results depend on the processing

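No Hox cluster passed the limma threshold in any alternative run, and directions were less stable than that. Without dividing by list length, E13.5 minus E10.5 turned to -1.48, -1.52, -1.65 and -1.72 (log2; HoxA, HoxB, HoxC, HoxD), female minus E10.5 to -0.966, -0.769, -1.26 and -1.14, male minus E10.5 to -2, -2.27, -2.04 and -2.31, and male minus female to -1.04 in HoxA and -0.781 in HoxC, by the construction of that alternative. H3K9me3 in HoxB turned to -0.0162 there, and lay from -0.00932 to 0.0231 with 1 library left out. With scores of at least 20, HoxD turned to -0.495 (E13.5 minus E10.5) and -1.20 (male minus E10.5), and male minus female to -0.403 in HoxA and -0.373 in HoxC. With the 359 top peaks HoxD turned to -0.343 and -1.32, HoxA to -0.0428 (male minus E10.5) and -2.36 (male minus female) and HoxC to -0.0437 (male minus female). The cause was not tested in either of these. With both short lists left out, HoxD male minus female turned to 0.291, and it lay from -0.395 to 0.291 with 1 library left out. Of 288 H3K27me3 values of share under an alternative, 262 kept their direction and 26 did not.

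In covered kb, E13.5 minus E10.5 passed an exact p of 0.05 with scores of at least 20 in HoxA (-63.3, p = 0.0357), HoxC (-76.9, p = 0.0119) and HoxD (-59.7, p = 0.0238), and with both short lists left out in all 4 clusters (-73.8, -100, -88.2 and -68.6 in HoxA to HoxD, exact p = 0.0476). Of all features 36.9 and 70.9% were lower at an exact p under 0.05 in these settings, against 19.2% with all lists and peaks. With 1 library left out it lay from -79.1 to -32.7, -106 to -36.4, -93.6 to -43.9 and -73.1 to -32.4. Male minus female turned to 1.18, 6.26 and 3.88 kb in HoxA, HoxC and HoxD without both short lists, to 4.40 in HoxD with scores of at least 20 and to 0.0693 in HoxC with top peaks, and lay from -18.5 to 1.18, -14.0 to 6.26 and -12.7 to 3.88 with 1 library left out.

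Bins held at E10.5 alone numbered 1, 1 and 3 against all E13.5, female and male lists with any overlap, 8, 16 and 18 with scores of at least 20, 0, 0 and 0 with top peaks, and 11, 22 and 29 without both short lists. The shares of all bins were 0.718, 1.2 and 1.65% with any overlap, 4.01, 5.63 and 5.22% with such scores, 0.155, 0.479 and 0.323% with top peaks, and 30.7, 34.5 and 39.8% without both short lists. With 1 library left out the Hox counts ranged from 2 to 11, 6 to 22 and 7 to 29, the last reaching 16 without male replicate 3. Bins held by females and no male numbered 2 with any overlap, 0 with at least 2.5 kb, 0 with scores of at least 20, 0 with top peaks and 1 to 7 with 1 library left out. Bins held by males and no female numbered 5 without both short lists and 0 to 5 with 1 library left out.

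The replicate numbers gave no clear pairing of the libraries, in a check that could miss a weak one. Among replicate 3 libraries the correlations of deviations from the group means were 0.149, 0.166 and 0.117 for H3K27me3. For H3K9me3 they were 0.0783, -0.0384 and 0.00565. Deviations of same-numbered libraries from their group means correlated from -0.165 to 0.166 for H3K27me3 and from -0.0418 to 0.134 for H3K9me3, and a library matched its own number best in 7 and 8 of 18 cases. With the replicate number as a block the estimates were the same and the adjusted p for E13.5 minus E10.5 were 0.527, 0.573, 0.593 and 0.752 (limma). Over all features that contrast had 2 calls higher and 18 lower without the block and 0 and 0 with it, and over the alternatives 0 to 6 higher and 0 to 126 lower. Male minus E10.5 had 1 higher and 5 lower, and 0 to 7 and 0 to 73 over the alternatives. Female minus E10.5 had 0 and 0, and 0 to 4 and 0 to 62. Male minus female had 0 and 0, and 0 to 27 and 0 to 48. The adjusted p of HoxA for E13.5 minus E10.5 ranged from 0.146 to 1, of HoxB from 0.288 to 1, of HoxC from 0.174 to 1 and of HoxD from 0.188 to 1. With no read counts, peaks missed for want of depth and peaks that are absent cannot be told apart.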

Other observations

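Bases of the clusters that no E10.5 list covered were few and lay mostly in HoxB. HoxC had none, over all 130 kb of its window. HoxB had 6 stretches of at least 2 kb without a peak, all between 96063173 and 96103930 on the Hoxb13 side of its window, the longest of them 4.909 kb, from 96082545 to 96087453. In 5 of these 6 no E13.5 list had a peak either. HoxD had 1 such stretch, 6.176 kb at the Hoxd1 end from 74603825 to 74610000, and HoxA had 1, 2.379 kb at the Hoxa13 end.

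Stretches of at least 500 bp that all E13.5 lists other than the 359-peak one covered at every base numbered 4: 573 bp in HoxA from 52139420, 666 bp in HoxB from 96158446, and 831 and 642 bp in HoxC from 102769925 and 102780200. HoxD had none. Of these, the 642 bp in HoxC was touched by all 3 E10.5 lists and the others by 2.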
